A study of Homo sapiens with 6 samples.

Results

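The mouse cells of the 10X Chromium libraries were compared between 30 and 35 PCR cycles. A barcode was taken as a mouse cell when it was among the 2000 barcodes with the largest count in its library, the number of cells in the label, and had 90% or more of its counts on mouse transcripts. This gave 806 mouse cells at 30 cycles and 881 at 35 cycles, or 1687 of the 4000 10X cells and of 6000 cells over all matrices of the series. The libraries were made from a mixture of a human and a mouse myeloma cell line, labelled JJN3 and 5TGMG1, the second of which is 5TGM1 in the study's methods. A figure legend of the study names the human line as Jurkat, while its main text and 10X methods give JJN3. Cells were loaded in equal parts, captured in 1 channel and amplified. The product was then split and amplified further to the labelled 30 or 35 cycles, enriched with streptavidin beads and read on a nanopore instrument. By the methods, the labelled number is the sum of cycles before and after the split, while the study's main text counts fewer. The libraries thus shared their captured cells and differed, by the labels, in cycle number. Each side was 1 library, so no difference has a replicate check and no test between cycle numbers was made. Intervals are 95% intervals for counting error only, except those of medians, which reflect the spread between cells. Those of summed counts, their shares and their ratios treat every count as a separate event. Counts were stored in values of 2 or more per cell and transcript, so these intervals are too narrow. Cells are not replicates, so no interval covers variation between libraries.

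Myeloma is a cancer of plasma cells, which are devoted to making and secreting a single antibody. Messenger RNA for the immunoglobulin chains and for the translation machinery is abundant in such cells. A unique molecular identifier (UMI) is a random sequence attached to each captured RNA before PCR, so that copies of 1 molecule can be counted once. An error in the UMI during a PCR cycle can make a copy look like a further molecule, and the comparison of cycle numbers asks whether counts of transcripts change with more PCR from the same cells.

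The files gave mouse transcripts as Ensembl identifiers without gene names, and no mouse annotation was used here. Only ENSMUST00000034966 carries a name, Rpl4, which the study's text gives to it. The plasma cell identity of the mouse cells could therefore not be checked against marker genes, and transcripts were not summed to genes. The smallest stored value was 2 in both 10X libraries, so a transcript with 1 UMI in a cell is missing and not 0. Barcodes had 10 bases, fewer than the study's methods give, and different cells could share a stored barcode.

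The libraries held 494147 UMI counts at 30 cycles and 740994 at 35 cycles. By exact Clopper-Pearson intervals, mouse cells made up 40.3% (38.1 to 42.5%) of the 2000 cells in the first library and 44.05% (41.9 to 46.3%) in the second. At 30 cycles 21 mouse cells lay within 2 percentage points above the purity limit and 9 other cells within 2 points below it. At 35 cycles these numbers were 14 and 8. Of the 806 mouse cells at 30 cycles, 631 (78.3%) were mouse cells at 35 cycles, 6 were mixed and 169 were stored outside the 2000. None of them was a human cell in the other library. Of the 881 mouse cells at 35 cycles, 71.6% were mouse cells at 30 cycles, 9 were mixed and 241 lay outside the 2000. The change in the set of mouse cells was thus mostly in which barcodes reached the 2000.

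Mouse cells carried more counts at 35 cycles. The median was 115 mouse counts per cell at 30 cycles, with quartiles of 90 and 157 and a range of 72 to 1165. At 35 cycles it was 167, with quartiles of 133 and 229 and a range of 105 to 1306. The ratio of medians was 1.45 (1.35 to 1.59, from the exact intervals of both medians). Summed over cells, mouse counts were 112800 (112143 to 113460, exact Poisson limits) with 30 cycles and 181284 (180450 to 182120) with 35, which gives a ratio of 1.61. Both distributions start at the count of the smallest cell taken, which was 76 counts of both species at 30 cycles and 114 at 35 cycles. With every barcode of at least 100 counts as a cell, the ratio of medians was 1.09. Read totals of these libraries are not in the sources used here, so sequencing depth and cycle number cannot be told apart.

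Within the 631 barcodes that were mouse cells in both libraries, the count rose from a median of 127 to 192. The median ratio per barcode was 1.52, with quartiles of 1.25 and 1.85, and 583 barcodes (92.4%) had more counts at 35 cycles, 46 had fewer and 2 had equal numbers. The ratio varied from 0.548 to 3.73. The 315 barcodes with the lower summed counts had a median ratio of 1.49 and the 316 with the higher had 1.56, so the increase was alike in shallow and deep cells.

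**Figure D1:**
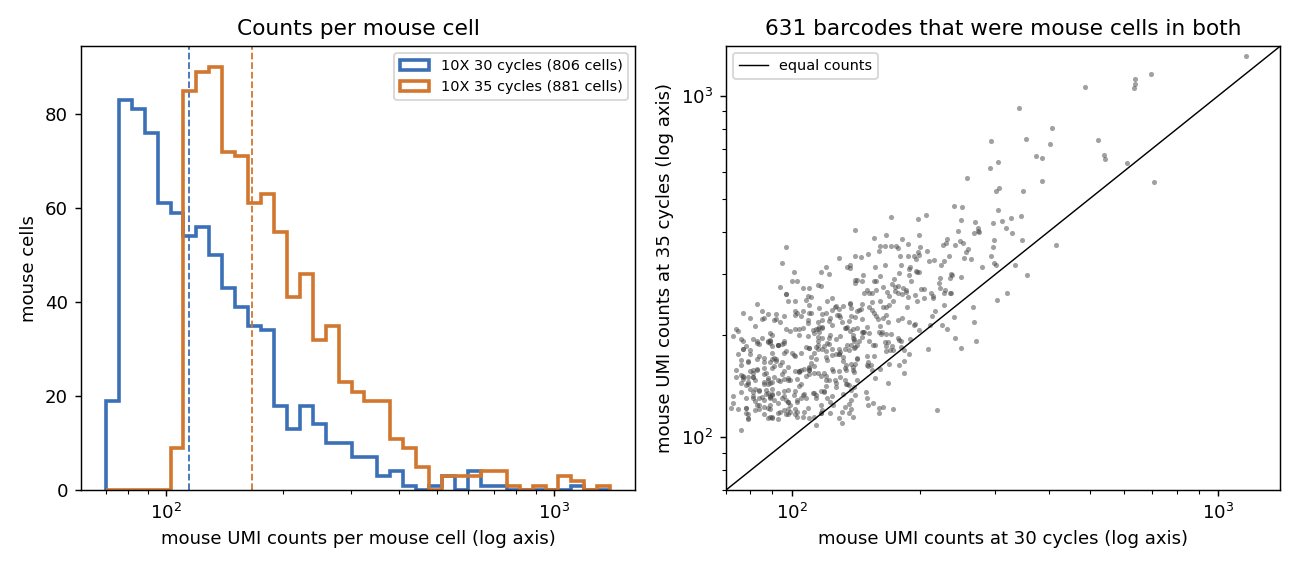
Left, the number of mouse cells by mouse UMI counts per cell on a log axis, with the medians as dashed lines (115 at 30 cycles and 167 at 35 cycles); each curve starts near the smallest count taken as a cell. Right, mouse counts of the 631 shared barcodes at 30 and 35 cycles on log axes, 1 point a barcode, most of them above the line of equal counts.

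As stored, the increase lay in more transcripts per cell and little in larger stored values. A mouse cell held 63.0 stored transcripts on average at 30 cycles and 88.2 at 35 cycles, a ratio of 1.40. The mean stored value went from 2.22 to 2.33, a ratio of 1.05. A value of 2, the smallest that was kept, made up 84.4% of stored values at 30 cycles and 79.4% at 35 cycles. Values of 4 or more made up 3.89% and 6.35%, and the largest was 20 and 27. Most of the mouse data therefore sat at the limit of what the files hold. A transcript that went from 1 to 2 UMIs in a cell would enter as a newly stored one. The split between more transcripts and larger values thus depends on this limit.

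Which transcripts were stored in a given cell differed widely between the libraries. In the 631 shared barcodes, 43029 combinations of barcode and transcript were stored at 30 cycles, and 25.4% of them (25.0 to 25.8%) were stored again at 35 cycles. Intervals of such shares treat combinations as separate, though many share a barcode, so they can be too narrow. Of the 62144 combinations stored at 35 cycles, 17.6% had been stored at 30 cycles. The share depended on the value. Of combinations with a value of 2 at 30 cycles, 19.6% were found again, against 47.1% at 3, 74.5% at 4 and 90.2% at 5 to 9. All 39 with a value of 10 or more were found again (exact interval 91.0 to 100%). In the reverse direction, 11.6% of the values of 2 at 35 cycles had been stored at 30 cycles, and 136 of 142 (95.8%) of those of 10 or more.

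**Figure D2:**
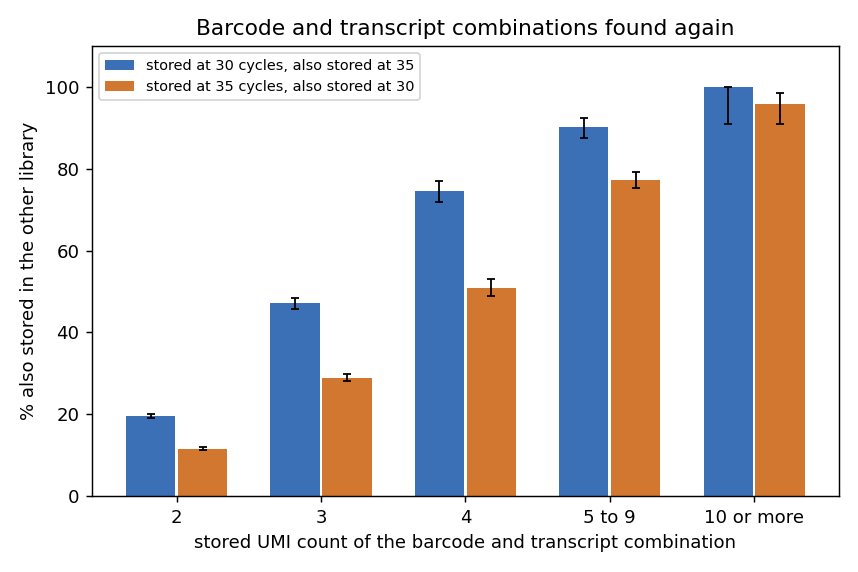
The share of barcode and transcript combinations, over the 631 shared mouse cells, that was stored in the other library as well, by the stored UMI count. Bars are percentages with exact 95% intervals, which treat combinations as separate and can be too narrow. The share climbs from 19.6% at a value of 2 to 39 of 39 at 10 or more for combinations stored at 30 cycles.

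Among the 10944 combinations stored in both libraries, the value was equal in 47.2%, higher at 35 cycles in 35.9% and lower in 16.8%. Their counts summed to 28403 at 30 cycles and 33604 at 35 cycles, a ratio of 1.18. This was below the median ratio of 1.52 for all counts of the same barcodes. A further 51200 combinations were stored only at 35 cycles, against 32085 only at 30 cycles.

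The number of transcripts detected at a fixed depth differed little. Cells with at least 200 mouse counts were thinned to 200, which left 102 cells at 30 cycles and 305 at 35 cycles, with 704 and 576 shallower cells left out. The median was 111 transcripts at 30 cycles and 108 at 35 cycles, a ratio of 0.973 (0.913 to 1.04, from the spread between cells). The medians before thinning were 116.5 and 113 in the same cells. At 100 counts a cell the ratio was 1.05, over 506 and 881 cells.

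Mouse counts fell on 18552 transcripts in these cells. Of these, 348 had at least 100 counts over both libraries and were compared, and they held 47.1% of mouse counts at 30 cycles and 50.1% at 35 cycles. Another 16410 transcripts had fewer than 20 counts each. The top 10 transcripts by count took 10.4% of mouse counts at 30 cycles and 11.4% at 35 cycles. Levels were CPM, the counts scaled to a fixed total (1e6) of mouse counts, and each ratio is a log2 ratio of 35 over 30 cycles with a pseudocount of 0.5 counts. The median log2 ratio of the 348 transcripts was 0.23, so that a value near 0.23 is the middle of the distribution.

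Of the 348 transcripts, 62 differed 2-fold or more (17.8%), with 40 higher at 35 cycles (11.5%) and 22 lower (6.32%). These calls rest on size alone, without a test. The median log2 ratio was 1.27 among the 40 and -1.88 among the 22. The values nearest to the limit of 1 were 1.005 inside and 0.996 outside. The balance of directions depended on the scaling. With ratios centred on their median, 21 were higher and 30 lower. With CPM over all counts in the 2000 cells, human ones included, 68 were higher and 18 lower. The mouse counts of the mouse cells were a larger share of that total at 35 cycles. Centring lowered every log2 ratio by the median of 0.23, so all 22 lower transcripts had to stay beyond 2-fold. Of the 40 higher ones, 21 stayed.

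The share of called transcripts was 20.3% of the 118 transcripts with 100 to 149 counts and 21.7% of the 69 with 250 to 499. It was 3.23% of the 31 with 1000 counts or more. The spread of the ratios between transcripts (SD, log2 scale) was 0.83 in the first of these classes and 0.43 in the last, and transcripts are not replicates. The directions were also unequal across abundance. Among transcripts with 100 to 149 counts, 18 were higher and 6 lower, and among the 94 with 150 to 249 counts, 15 and 3. The minimum was set on raw counts, and the 35-cycle library held more of them, so transcripts higher at 35 cycles reached it more readily. With the minimum set on the mean share of both libraries, 35 were higher and 23 lower, an alternative added after the data were seen. Among those with 250 to 499 counts, 4 were higher and 11 lower, but these 11 came from 3 groups of transcripts stored in the same cells, described below.

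Ratios followed the number of cells in which a transcript was stored. All 40 higher transcripts were stored in a larger share of mouse cells at 35 cycles and none of the 22 lower ones was. The median share rose from 1.74% to 6.30% of the mouse cells for the 40, and fell from 12.2% to 4.82% for the 22. The mean stored value moved less, with a median of 2.125 and 2.26 in the higher transcripts, where it was larger at 35 cycles in 27 of the 40, and of 2.30 and 2.17 in the lower ones. The counts that chose these transcripts also set these shares, so the shares describe them and are no further evidence.

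**Figure D3:**
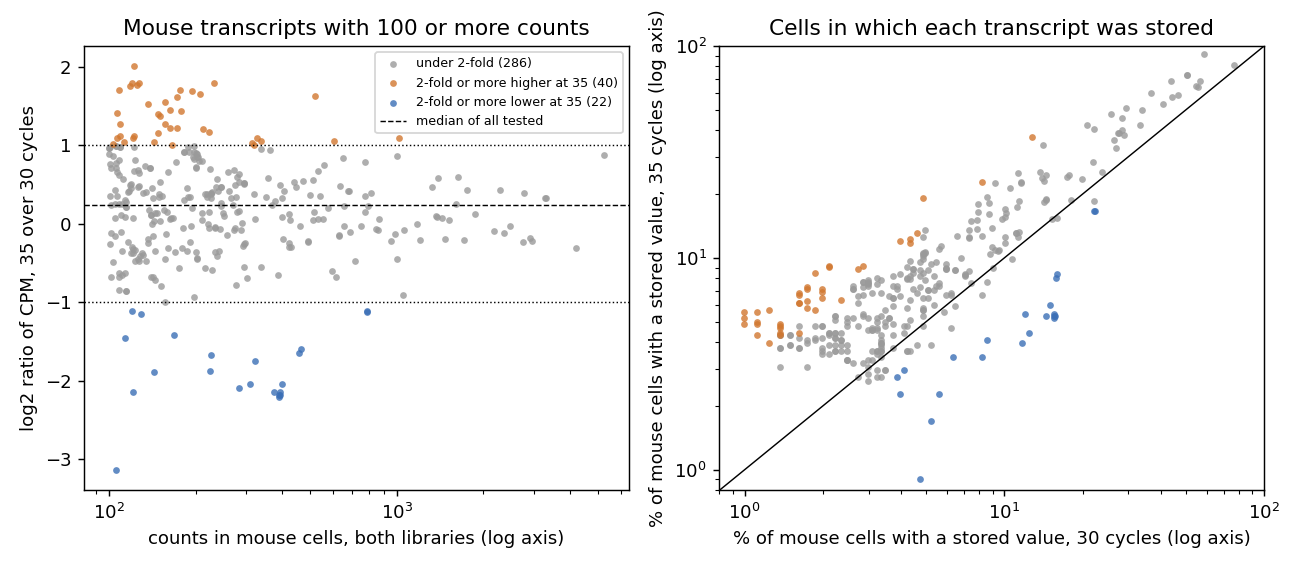
Left, the log2 ratio of CPM within mouse counts (35 over 30 cycles) against the counts over both libraries (log axis) for 348 mouse transcripts, with the 40 higher and 22 lower by 2-fold or more in colour, dotted lines at 2-fold and the median of 0.23 dashed. Right, the percentage of mouse cells with a stored value at 30 and 35 cycles on log axes; the lower transcripts lie below the line of equal shares and all higher ones above it.

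Many of the called transcripts were stored in the same cells and cannot be taken as separate. Transcripts were grouped when their presence over all mouse cells had a phi correlation of at least 0.5, a choice made after the values were seen. The 348 transcripts formed 193 groups, of which 89 held 2 or more. Of the 22 lower transcripts, 14 lay in 4 such groups, and every member of these 4 groups was lower. One of them held 4 transcripts with 288 to 290 counts at 30 cycles and 100 to 104 at 35 cycles, stored in 125 to 126 and in 46 to 48 cells. Another 4 went from between 275 and 304 counts to between 100 and 161, and a further 4 from between 151 and 222 to between 76 and 104. Of the 40 higher transcripts, 34 lay in groups, and 6 of these groups also held transcripts under 2-fold. Counted once per group by the transcript with the most counts, 16 were higher and 12 lower. Reads that fit several transcripts of a gene, or of similar genes, could place 1 molecule on each member of a group, which was not tested.

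ENSMUST00000034966, named Rpl4 in the study's text, encodes a protein of the large ribosomal subunit. It had 230 counts at 30 cycles and 790 at 35 cycles, or 2039 and 4358 CPM. Its log2 ratio was 1.09, with an exact conditional interval from 0.88 to 1.31. It went from the 58th to the 25th place by abundance. The transcript was stored in 103 mouse cells at 30 cycles (12.8%, 10.6 to 15.3%) and in 327 at 35 cycles (37.1%, 33.9 to 40.4%). In human cells, which should lack it, it was stored in 0 of 1006 at 30 cycles, which allows a share of up to 0.298%, and in 1 of 911 at 35 cycles. Median depths were alike, at 118 counts for human and 117 for mouse cells at 30 cycles and 171 for both at 35 cycles. The mean stored value went from 2.23 to 2.42. In the 631 shared barcodes, it was stored in 48 at both cycle numbers, in 43 only at 30 and in 197 only at 35. The log2 ratio was 0.84 in the deeper 316 of these barcodes and 1.09 in the shallower 315. Within all 631 it was 0.94, centred on the median 0.86 and in the 1000 largest barcodes 0.82, all under 2-fold. The remaining processing alternatives left it past 2-fold, at 1.02 to 1.28.

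The most abundant mouse transcript at 35 cycles was ENSMUST00000019649. It had 1331 counts at 30 cycles (1.18% of the mouse counts) and 3934 at 35 cycles (2.17%), a log2 ratio of 0.88 (0.79 to 0.97). Both its cells and its stored values increased. It was stored in 58.6% of the mouse cells at 30 cycles and in 91.4% at 35 cycles, and the mean stored value went from 2.82 to 4.89. A value of 5 or more made up 6.99% of its stored values at 30 cycles and 50.4% at 35 cycles. In human cells it was stored in 1.39% and 2.63%. Its log2 ratio passed 2-fold with CPM over all counts (1.07) and with the 35-cycle library thinned to the 30-cycle total (1.13).

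ENSMUST00000020488 was the most abundant at 30 cycles and came second at 35 cycles. Its counts were 1838 and 2372, and its log2 ratio was -0.32 (-0.40 to -0.23). It was stored in 76.3% and 80.9% of the mouse cells, with a mean stored value of 2.99 and 3.33. The first and second transcripts therefore exchanged places between the libraries. The share of human cells with this transcript was 2.29% at 30 cycles and 0.329% at 35 cycles.

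The highest log2 ratio belonged to ENSMUST00000105598, with 16 counts at 30 cycles and 106 at 35 cycles (2.01, 1.28 to 2.90). It was stored in 8 and 46 mouse cells. Next was ENSMUST00000181983, with 19 and 108 counts in 8 and 49 cells (1.79, 1.11 to 2.61). In the shallower 315 shared barcodes its log2 ratio was 0.25 and in the deeper 316 it was 2.91, on 14 and 25 counts against 5 and 63. With stored values below 3 left out it was 0.51, and in the 1000 largest barcodes 3.23. Both transcripts rested on few cells at 30 cycles. All 8 stored values of ENSMUST00000105598 at 30 cycles were 2, so that leaving out values below 3 left it at 0 there. The log2 ratio was then 4.81, a value that rests on the pseudocount.

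The lowest log2 ratio belonged to ENSMUST00000099224, with 90 counts at 30 cycles and 16 at 35 cycles (-3.14, -4.04 to -2.40). It was stored in 38 and 8 mouse cells, and its value was 2 in each of the 8. Leaving out values below 3 left it at 0 at 35 cycles, with a log2 ratio of -7.36 that rests on the pseudocount. ENSMUST00000168776 had 289 counts in 125 cells at 30 cycles and 100 counts in 46 cells at 35 cycles (-2.21, -2.56 to -1.88, and -3.57 with values below 3 left out). It was a member of the first group of 4 described above. In the shared barcodes it was stored in 89 only at 30 cycles, in 31 only at 35 and in 13 at both. Neither transcript was stored in a human cell of either library.

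The mouse cells of the Drop-seq libraries at 30 and 35 cycles, 291 and 309 of the 500 largest barcodes each, gave another pair of the same cycle numbers. Their smallest stored value was 3, so levels do not share a scale with 10X. The sources used here do not say whether the deposited Drop-seq counts had the study's homotrimer correction of UMI errors. The study reports Drop-seq transcripts that differed between cycle numbers without that correction, and no significant ones with it. Of 635 mouse transcripts with at least 100 counts in the Drop-seq mouse cells, 0 differed 2-fold (0%). The SD of their log2 ratios was 0.25, against 0.79 over the 348 transcripts in the 10X mouse cells, a different set. Over the 148 transcripts with enough counts on both platforms, the SD was 0.19 in Drop-seq and 0.51 in 10X. Pearson's r of the log2 ratios of these 148 was -0.10 and Spearman's rho -0.15, as a description across transcripts. The 15 of these that were 2-fold higher in 10X lay between -0.21 and 0.34 in Drop-seq. ENSMUST00000034966 had 407 and 515 counts in Drop-seq (-0.19, -0.38 to 0.0045), ENSMUST00000019649 had 243 and 330 (-0.09), and ENSMUST00000020488 had 487 and 725 (0.05). With 1 library a side, the difference between platforms was not tested.

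**Figure D4:**
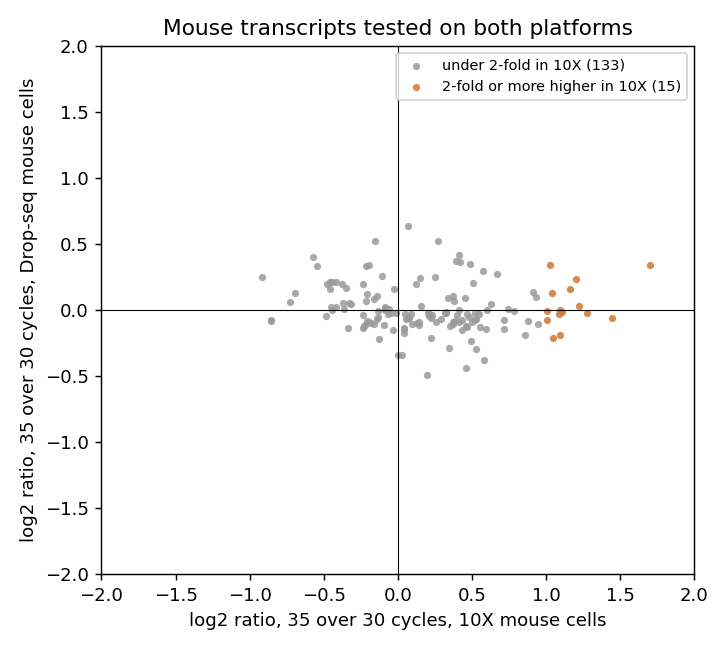
Log2 ratios of 35 over 30 cycles for the 148 mouse transcripts with at least 100 counts on both platforms, 10X on the horizontal and Drop-seq on the vertical axis, 1 point a transcript. The 15 that were 2-fold or more higher in 10X lie between -0.21 and 0.34 in Drop-seq, and no transcript that was 2-fold lower in 10X had enough counts there.

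The 22 transcripts that were lower at 35 cycles were scarce in Drop-seq. Together they held 4.24% of the mouse counts in 10X at 30 cycles, or 42403 CPM, and 12787 CPM at 35 cycles. In Drop-seq they held 1228 CPM at 30 cycles and 1159 CPM at 35 cycles. Of the 22, 10 had no stored count in the mouse cells of either Drop-seq library and none reached 100 counts. Among the 40 higher ones, 3 had no stored count and 15 reached 100, and among the 286 under 2-fold, 32 and 133. Values below 3 were not stored there, and 14 of the 22 lay in groups stored in the same cells. The 40 higher transcripts held 14938 CPM in 10X at 30 cycles and 36782 CPM at 35 cycles, and in Drop-seq 11399 and 11681 CPM. For the 286 transcripts under 2-fold, the sums at 30 cycles were 414131 CPM in 10X and 279114 CPM in Drop-seq.

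The human cells of the same 10X libraries, 1006 and 911, were compared in the same way with CPM within human counts. Of 381 human transcripts, 107 differed 2-fold or more (28.1%), with 29 higher (7.61%) and 78 lower (20.5%). Their median log2 ratio was 0.06 and the SD 0.90. In the mouse cells the higher transcripts were the more numerous, at 40 against 22, though not when centred on the median.

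Human counts in the mouse cells made up 1.88% of all counts in mouse cells at 30 cycles (2156 counts, 1.80 to 1.96%) and 1.75% at 35 cycles (3227 counts, 1.69 to 1.81%). No human count was stored in 384 mouse cells (47.6%) at 30 cycles and in 379 (43.0%) at 35 cycles. The rule for mouse cells held this share at 10% or less. The human counts fell on 496 transcripts, of which 463 (93.3%) matched the GENCODE annotation of hg38.

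Most of these counts, 1214 of the 2156 and 1915 of the 3227, lay on human transcripts with a higher level in mouse than in human cells. They were 1.06% of all counts in mouse cells at 30 cycles and 1.04% at 35 cycles, and the human transcripts with a lower level in mouse cells were 0.819% and 0.711%. The sorting used these same counts with no minimum, so the sums describe the sorting and are no further evidence. Of the 12 transcripts of the first kind with at least 20 counts, 7 had a log2 ratio above 0 and 5 below 0. The one with the most counts at 30 cycles, ENST00000545075, which was not matched to the annotation, had 253 and 208 counts in mouse cells (-0.96, -1.24 to -0.69). The 2 transcripts of PABPN1, the nuclear poly(A)-binding protein, on chromosome 14 from 23321457 to 23326163, each had 85 counts in mouse cells at 30 cycles and 344 at 35 cycles, a log2 ratio of 1.33 (0.99 to 1.69). They were stored in 39 and 130 mouse cells. In human cells they had 34 and 71 counts for ENST00000216727, so that the level in mouse cells was 354% of that in human cells at 30 cycles and 525% at 35 cycles. RNA5-8SP2, a 5.8S ribosomal RNA pseudogene on chromosome 16 from 34162959 to 34163110, had 21 and 85 counts in mouse cells, against 2 counts at 30 cycles and none at 35 cycles in human cells. Whether such counts came from mouse RNA that was mapped to a human transcript was not tested.

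Human transcripts that were abundant in human cells did not all move in one direction in the mouse cells. ENST00000532223 of IGLL5, a gene of the immunoglobulin lambda locus on chromosome 22 (transcript from 22887780 to 22896107), had 14 counts in 6 mouse cells at 30 cycles and 94 counts in 46 mouse cells at 35 cycles, a log2 ratio of 2.02 (1.25 to 2.99). IGLC1, a lambda constant region from 22895375 to 22895834, went from 7 to 70 counts, and IGLV2-14, a lambda variable region from 22758700 to 22759218, from 14 to 74. ENST00000361624 of MT-CO1, a subunit of cytochrome c oxidase encoded on the mitochondrial genome, went from 29 to 20 counts in mouse cells while it had 3031 and 4516 in human cells. The log2 ratio in mouse cells was -1.21 (-2.12 to -0.35).

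These transcripts were then summed in lists, chosen after the values were seen, and set against their level in human cells. The 5 transcripts of immunoglobulin lambda genes and IGLL5 with counts in mouse cells stood at 0.646% of their level in human cells at 30 cycles (0.487 to 0.839%) and at 1.64% at 35 cycles (1.48 to 1.82%). The 12 mitochondrial-genome coding transcripts stood at 0.901% (0.740 to 1.09%) and at 0.475% (0.392 to 0.571%). The other 238 named transcripts that were lower in mouse than in human cells stood at 2.08% and 1.30%. The immunoglobulin transcripts overlap and can count a molecule more than once, which narrows their interval further.

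**Figure D5:**
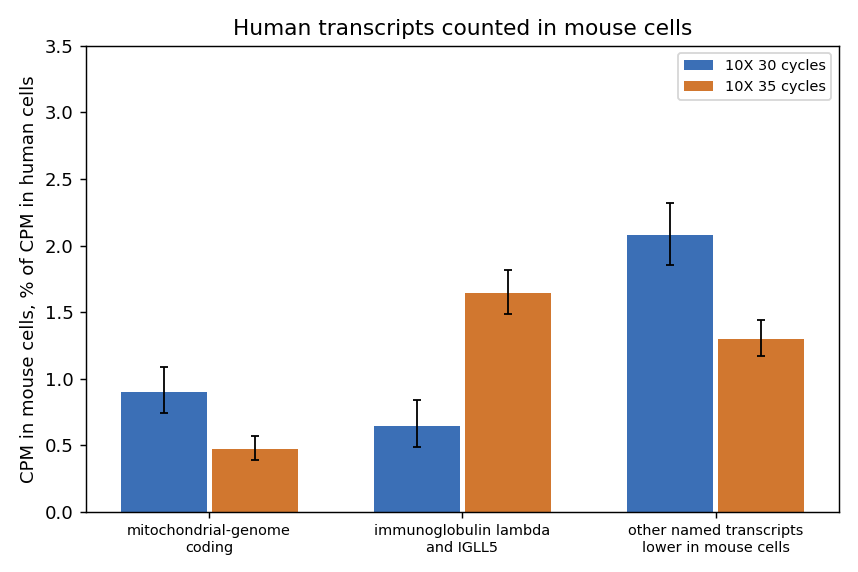
CPM of human transcripts in the 10X mouse cells as a percentage of their CPM in the human cells of the same library, for 3 lists at 30 and 35 cycles, with exact conditional 95% intervals for counting error. The immunoglobulin lambda and IGLL5 bar is higher at 35 cycles (1.64% against 0.646%), and the other 2 lists are lower.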

How the data were processed

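The 10X libraries at 30 and 35 cycles were compared over their mouse cells, and the Drop-seq libraries at the same cycle numbers were used beside them. Each deposited file gives UMI counts (whole numbers) of Ensembl transcripts by barcode. For these, the authors used Guppy base calls, minimap2 mapping to human hg38 and mouse mm10 transcripts and, for 10X, the directional method of UMI-tools. Which Drop-seq counting was deposited, and the cutoffs behind the smallest stored values of 2 and 3, are not given in the sources used here. Labels name hg38 as the build.

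Computation used scipy 1.17.1, pandas 2.3.3 and numpy 2.4.6 under Python 3.11.15, and plots matplotlib 3.10.9. Species came from the identifier prefix. Counts were summed over mouse cells and scaled within mouse counts, and transcripts with at least 100 counts over both libraries were compared. Ratios have exact conditional binomial intervals, shares exact Clopper-Pearson intervals. The fold rule was tried on simulated Poisson counts with changes larger than 2-fold and ratios centred on their median. The simulation had no smallest stored value and no transcripts stored in the same cells. It therefore does not check the calls made in these data. Doublets of 1 species were not removed, and no caller was run. Human names and positions came from GENCODE release 44 on hg38, matched without the version. Mouse transcripts were named if the study's text names them, if they were most abundant in a library or if their ratio was among the 2 highest or 2 lowest, because no table paired mouse identifiers with names; human transcripts were named after their values were seen. The cells, the lists and the rules were chosen with earlier results of these data known. Alternatives changed the cells, the purity, the scaling, the pseudocount, the depth and the minimum count.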

Additional observations from a re-analysis of the deposited data

Results flagged for a closer look

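Of the named transcripts, 3 had a log2 ratio of one sign in the 10X mouse cells and of the other sign in the Drop-seq mouse cells, which is why they are listed here. ENSMUST00000034966 stood at 1.09 in 10X and -0.19 in Drop-seq. ENSMUST00000019649 stood at 0.88 and -0.085, and ENSMUST00000020488 at -0.32 and 0.047. The Drop-seq intervals of these 3 transcripts hold 0. With 1 library a side the differences were not tested.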

How the results depend on the processing

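Of 62 transcripts past 2-fold (40 higher, 22 lower), the number was 32 (15 higher) in the 1000 largest barcodes, 40 (23 higher) in barcodes that were mouse cells in both libraries, and 23 (9 higher, 14 lower) with stored values below 3 left out. A minimum of 20 counts gave 664 (355 and 309), of 50 counts 201 (108 and 93) and of 200 counts 26 (11 higher). A call at 1.5-fold gave 139 (96 and 43) and at 3-fold 28 (12 higher). Groups stored in the same cells, counted once, gave 28 (16 and 12), an alternative added after the data were seen. The number higher was 21 when centred on the median, 68 with CPM over all counts in cells, and 24 with the 35-cycle library thinned to the 30-cycle total, where fewer transcripts reached the minimum. Of the first 40 and 22 transcripts, 39 and 22 stayed past 2-fold after that thinning, and 28 and 20 in the shared barcodes. The ratio of median counts was 1.09 with all barcodes of at least 100 counts and 2.03 with values below 3 left out. The ratio of transcripts detected was 1.05 at 100 counts and 1.40 without thinning, and it had no value with values below 3 left out, because too few cells reached the depth. All 7 named transcripts kept their sign under every alternative run. Comparisons of genes and of gene lists were not run, because mouse identifiers were not paired with gene names. No test paired by library was possible because each group held 1 library, and barcodes were paired only as a description. Stored values at the smallest number kept limit what the depth can show.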
